A study of Mus musculus with 6 samples.

Results

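Poly(A)-binding proteins and other proteins that set the stability of messenger RNA were followed as a group of 10 genes, chosen by name: Pabpn1, Pabpn1l, Pabpc1, Pabpc1l, Zfp36l1, Zfp36l2, Ythdf2, Igf2bp2, Ybx2 and Cpeb1. They were chosen with earlier results of these data known. They are 10 of the 55335 genes listed in each of 6 libraries of mouse 4-cell embryos. The libraries were made by Smart-Seq2, a method for minute amounts of RNA in which polyadenylated transcripts are copied from an oligo-dT primer and the cDNA is then amplified. There were 3 control libraries (Con) and 3 libraries of embryos treated with DRB, a nucleoside analogue that blocks transcript elongation by RNA polymerase II. DRB was given to zygotes at 20 µM from 6 h after fertilization for 20 h, and was then washed out before a further 26 h of culture. The sources used here give no strain, no vehicle for Con and no number of embryos per library, and no label says whether replicates were separate cultures. The p-values therefore reflect the spread of these libraries alone, which may be technical.

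The mouse embryo begins life on messenger RNA stored by the oocyte. Proteins that bind the poly(A) tail and sites in the 3′ UTR decide whether a stored message is kept silent, translated or degraded, and much of the store is cleared around the time the embryo's own genome is switched on. Nuclear poly(A)-binding protein covers new tails and sets their length, the cytoplasmic proteins link the tail to translation initiation, and reader proteins such as those of the Zfp36 and Ythdf families bring deadenylases to the messages they bind.

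Library depth, estimated from the steps in low FPKM values, was 22300000 to 25200000 fragments. On the log2 scale, Con libraries correlated with each other at 0.935 to 0.944 (Pearson's r across genes), DRB libraries at 0.909 to 0.937, and libraries of different groups at 0.869 to 0.915. Genes of the mitochondrial genome took 12.2% to 19.96% of all FPKM in Con and 23.9% to 26.4% in DRB, which lowers the share left to other genes. All 14 oocyte and cleavage embryo markers were detected above the filter, with Dppa3 at 13434 to 24780 FPKM. Of 15 cumulus and granulosa markers 6 were listed at 0 in all libraries, Fshr, Inha and Cyp19a1 among them, and the summed level of the list, mostly Gja1 but with Amhr2 at 17.9 to 28.2 FPKM, was 215 to 390 FPKM in Con and 149 to 277 FPKM in DRB. The 10 sperm markers summed to 12.9 to 22.8 FPKM in Con and 12.6 to 24.4 FPKM in DRB, mostly Ldhc (6.65 to 18.4 FPKM) and Odf2 (3.61 to 8.12 FPKM), while the protamine Prm1 was at 0 to 0.83 FPKM. The 8 blood cell markers, 5 of which passed the filter, summed to 77.2 to 120.9 FPKM in Con and 47.6 to 90.2 FPKM in DRB, mostly globins, with Hba-a1 at 24.8 to 68.9, Hba-a2 at 13.5 to 38.3 and Hbb-bs at 5.08 to 17.0 FPKM, while Alas2 was at 0 to 0.02 FPKM.

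Of the 7 members tested, 1 passed the limma test between groups, against 2.48% of all genes tested. Pabpn1, the nuclear poly(A)-binding protein, was 3.3 times as abundant in DRB embryos as in Con. Its call was lost in 4 of 14 alternative fits. Zfp36l2, a zinc-finger protein that promotes decay of AU-rich messages, stood 3.13 times as high in DRB without overlap between groups. DRB lay entirely above Con in 9.85% of all genes tested. Zfp36l2 did not pass after adjustment for all genes. Pabpc1, Ythdf2, Igf2bp2, Ybx2 and Cpeb1 overlapped between groups and did not pass the test. Pabpn1l, Pabpc1l and Zfp36l1 were at or near 0 in every library. In RNA from whole embryos, a message held by more of the cells and more of that message per cell cannot be told apart.

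Of the 10 members 7 reached the filter of at least 1 FPKM in at least 3 libraries; 6 of these exceeded it in all 6 libraries and Cpeb1 in 5. By limma on log2(FPKM + 1) with Benjamini-Hochberg adjustment, 1 of the 7 was called higher and 0 were called lower, against 1.53% called higher and 0.95% called lower of all 11893 genes tested. Those shares are 182 and 113 genes, which became 231 and 86 with median-of-ratios scaling and 191 and 74 with mitochondrial genes left out. At an unadjusted limma p below 0.05 there were 2 members, both higher in DRB, against 7.53% of all genes tested. The 3 DRB libraries lay entirely above the 3 Con libraries in 2 of the 7, against 9.85% of all genes. The median log2 change of the 7 was 0.50, DRB minus Con, beside -0.09 over all genes tested, and 6 of the 7 had a positive sign, as did 44.0% of all genes. The members were chosen with earlier results of these data known, so these figures cannot show an excess over all genes.

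**Figure D1:**
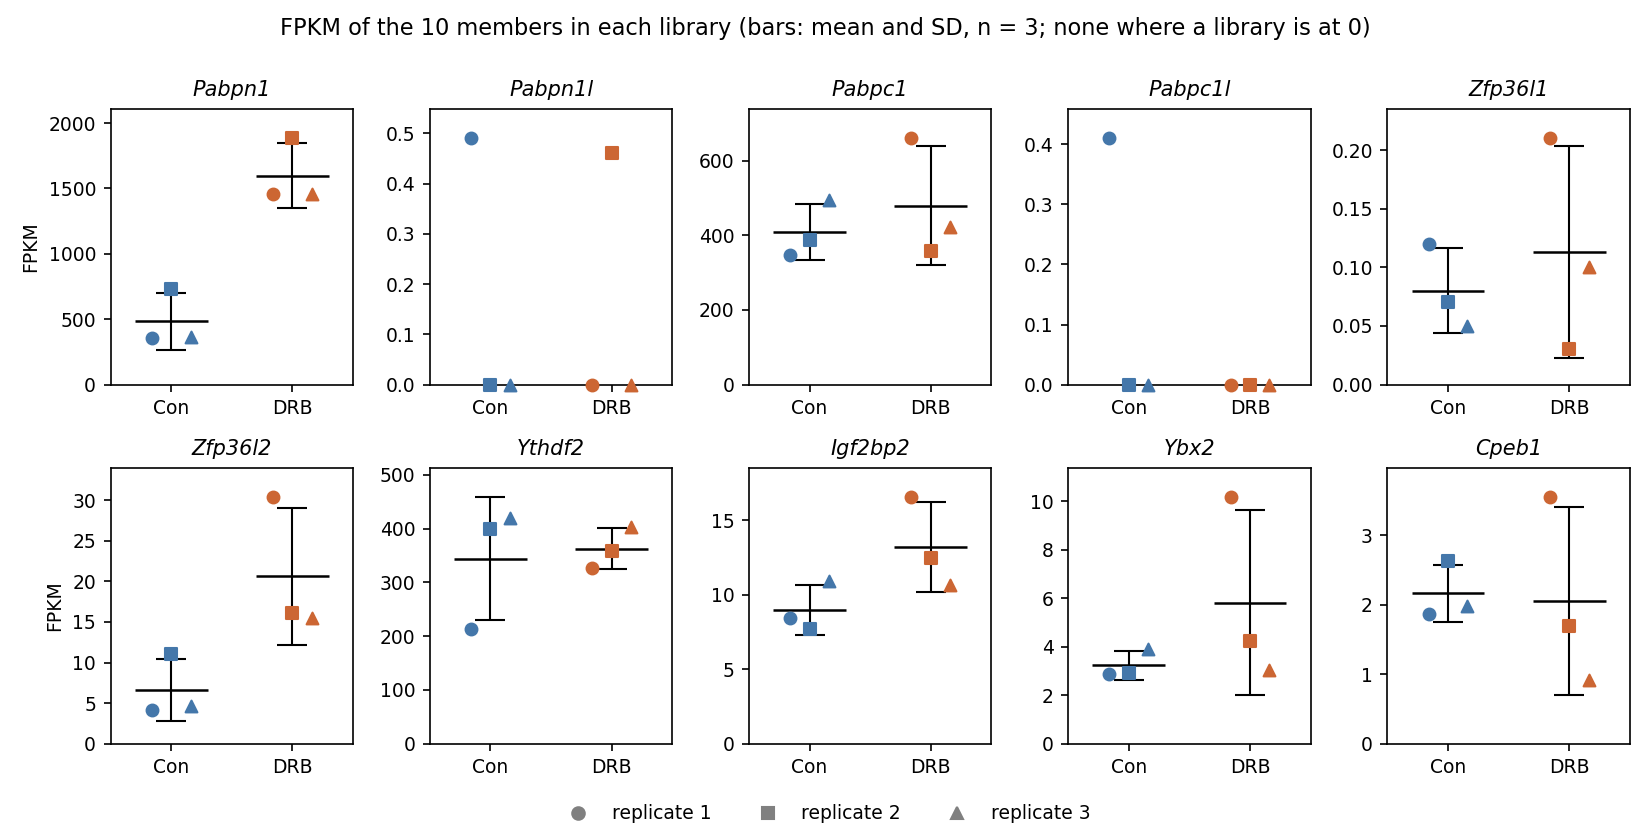
FPKM of each of the 10 members in the 3 Con and 3 DRB libraries, on axes that start at 0 and differ between panels; points are libraries, and bars give the mean and SD (n = 3) where no library is at 0. Pabpn1 and Zfp36l2 have all DRB points above all Con points, and Pabpn1l, Pabpc1l and Zfp36l1 stay below 0.5 FPKM.

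Pabpn1 (chromosome 14, 54892500 to 54898169, plus strand, GRCm38) encodes the protein that coats the growing poly(A) tail in the nucleus and stimulates poly(A) polymerase. It stood at 356, 733 and 362 FPKM in Con replicates 1 to 3 and at 1456, 1883 and 1457 FPKM in DRB replicates 1 to 3. The lowest DRB library was thus above the highest Con library, Con replicate 2, which itself lay apart from the other Con libraries. Means were 484 ± 216 and 1599 ± 246 FPKM (SD, n = 3 per group). The log2 change was 1.80 ± 0.31 (SE), with a 95% interval of 1.11 to 2.49 and a limma adjusted p of 0.0168. In mean level Pabpn1 ranked 336 from the top among the 11893 tested genes in Con and 107 in DRB. The call was lost in 3 of the 6 fits without 1 library, at an adjusted p of 0.0619 when Con replicate 3 was left out, of 0.0575 for DRB replicate 1 and of 0.0572 for DRB replicate 2, while the log2 change stayed between 1.62 and 2.14. It was also lost with no filter on low values (adjusted p 0.217 over 27554 genes).

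**Figure D2:**
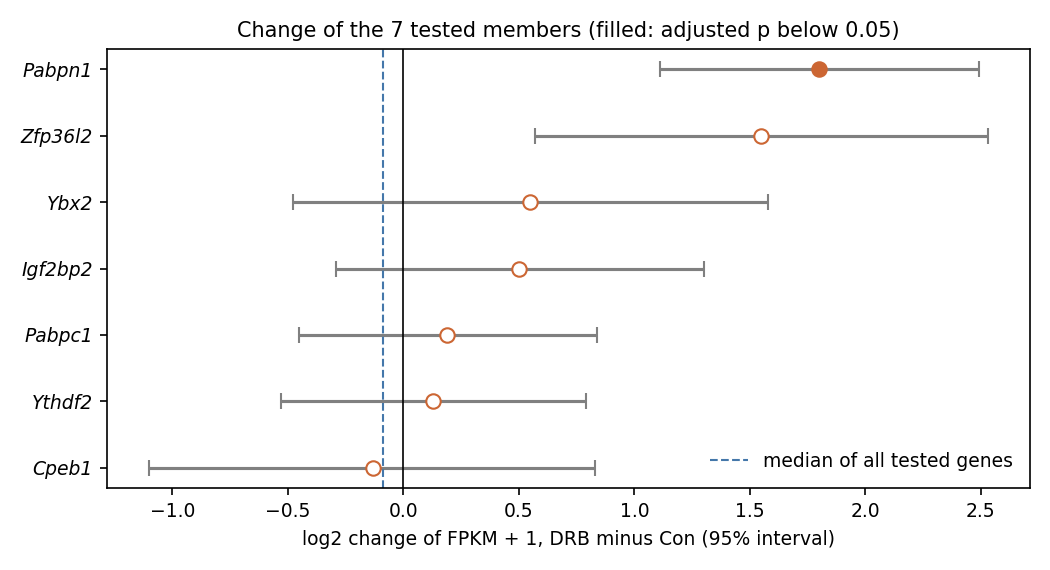
Log2 change of FPKM + 1, DRB minus Con, for the 7 tested members, with limma's 95% interval; filled points have an adjusted p below 0.05 and the dashed line is the median of all tested genes. Pabpn1 is the filled point at 1.80, and the intervals of the members other than Pabpn1 and Zfp36l2 include 0.

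On the same strand lies Gm20521, a protein-coding gene model from 54883441 to 54898137, which begins upstream of Pabpn1 and spans nearly all of it. Of the 100-base stretches in its longest coding transcript, 20.2% also occur in transcripts of Gm20521. Gm20521 itself was at 0 to 1.89 FPKM in Con and 0.14 to 0.60 FPKM in DRB, far below Pabpn1 in every library. The fragments behind Pabpn1, estimated with that transcript's length, numbered 12968 to 68424 per library.

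Pabpn1l (chromosome 8, 122619471 to 122622739, minus strand) encodes the oocyte's own nuclear-type poly(A)-binding protein, a cytoplasmic protein known for its part in clearing maternal messages. It was listed at 0.49, 0 and 0 FPKM in Con and at 0, 0.46 and 0 FPKM in DRB. The 2 values above 0 rest on about 11 and 10 fragments, and a 0 allows up to 3 fragments, or 0.125 to 0.143 FPKM by library. No fold is given, since both groups are near this limit. None of the 100-base stretches of its longest coding transcript occurs in a transcript of another gene, and the opposite-strand gene model that spans it, Gm20388, was at 0 to 0.44 FPKM. The promoters of both genes are shown because these relatives differ so widely in level; each runs 5′ to 3′ from 250 bases before to 50 after the RefSeq start (GRCm38.p6), with CCAAT boxes and GC boxes in capitals. The window of Pabpn1 is chr14:54893893-54894192 on the plus strand and that of Pabpn1l is chr8:122622686-122622985 on the minus strand. The window of Pabpn1 lies inside its GENCODE gene model, which starts upstream at 54892500, so it describes the RefSeq start only.
Pabpn1: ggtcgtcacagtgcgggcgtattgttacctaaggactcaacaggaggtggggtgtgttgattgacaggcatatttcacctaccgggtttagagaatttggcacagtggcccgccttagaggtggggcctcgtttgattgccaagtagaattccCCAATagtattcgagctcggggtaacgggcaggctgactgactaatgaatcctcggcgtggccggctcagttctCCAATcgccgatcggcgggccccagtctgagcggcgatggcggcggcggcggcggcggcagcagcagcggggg
Pabpn1l: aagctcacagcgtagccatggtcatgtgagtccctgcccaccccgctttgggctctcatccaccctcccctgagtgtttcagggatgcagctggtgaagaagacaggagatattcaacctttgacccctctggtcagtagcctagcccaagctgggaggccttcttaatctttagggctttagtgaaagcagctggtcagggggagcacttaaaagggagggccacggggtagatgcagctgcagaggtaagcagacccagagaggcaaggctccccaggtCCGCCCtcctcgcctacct

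Both strands were searched for the TATA box, spelled TATAAA, for the GC box, spelled GGGCGG, for the CCAAT box, spelled as its name, and for the E-box, spelled CACGTG. No match overlapped another in these windows, and a match is a description of the letters, not a site. Pabpn1 held 2 CCAAT boxes, starting at positions 154 and 228 of its window, and none of the other motifs. Pabpn1l held 1 GC box at position 282. Of 32851 promoters of the same length in the RefSeq table, 37.4% held a CCAAT box, 35.7% a GC box, 13.6% a TATA box and 7.15% an E-box. GC content was 60.3% in the window of Pabpn1 and 57.7% in that of Pabpn1l, and the median over all promoters was 52.7%. Promoter windows were present for 8 of the 10 members.

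Pabpc1 (chromosome 15, 36595661 to 36609668, minus strand) encodes the main cytoplasmic poly(A)-binding protein, which bridges the tail and the cap-binding complex. Con libraries held it at 346, 387 and 494 FPKM and DRB libraries at 660, 357 and 421 FPKM. The groups overlapped, with DRB replicate 1 above all other libraries. Means were 409 ± 76.2 and 479 ± 160 FPKM (SD, n = 3), and the log2 change was 0.19 with a 95% interval of -0.45 to 0.84 (limma adjusted p 0.789). Without DRB replicate 1 the log2 change was -0.06. Of its 100-base stretches 5.3% also occur in the gene models Gm16580 and Gm8276, which were at most 9.11 FPKM.

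Pabpc1l (chromosome 2, 164025450 to 164050538, plus strand) encodes the embryonic poly(A)-binding protein of oocytes and early embryos. It was listed at 0.41 FPKM in Con replicate 1, on about 21 fragments, and at 0 in the other 5 libraries, where a 0 allows up to 0.0616 FPKM. Both oocyte paralogs, Pabpn1l and Pabpc1l, were thus nearly absent from these libraries in either group, while Pabpn1 and Pabpc1 were abundant. The log2 ratio of Pabpn1 to Pabpn1l and that of Pabpc1 to Pabpc1l rest on denominators at or near 0 and so are not read further.

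Zfp36l2 (chromosome 17, 84183931 to 84187947, minus strand) and Zfp36l1 (chromosome 12, 80107754 to 80113013, minus strand) encode CCCH zinc-finger proteins that bind AU-rich elements and recruit the CCR4-NOT deadenylase. Zfp36l2 is needed in oocytes and early embryos for turnover of maternal messages. It stood at 4.17, 11 and 4.63 FPKM in Con and at 30.3, 16.0 and 15.5 FPKM in DRB. All DRB libraries exceeded all Con libraries, with Con replicate 2 again the highest of its group and DRB replicate 1 the highest of all. Means were 6.60 ± 3.82 and 20.6 ± 8.42 FPKM (SD, n = 3). The log2 change was 1.55 ± 0.45 (SE), with a 95% interval of 0.57 to 2.53, an unadjusted limma p of 0.00508 and an adjusted p of 0.0961. Across the alternatives its adjusted p was 0.0714 to 0.341 and its log2 change 1.25 to 1.94, the lowest without DRB replicate 1. The gene has 1 transcript, and 323 to 2382 fragments were estimated behind these values. An antisense gene, AC132455.1, overlaps the 5′ part of the gene in GENCODE M21 (84185756 to 84216056). Standard Smart-Seq2 does not keep strand, so reads from the overlap cannot be told apart by strand. Of the 100-base stretches of the Zfp36l2 transcript, 0.2% also occur, on either strand, in transcripts of AC132455.1.

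Zfp36l1 was at 0.12, 0.07 and 0.05 FPKM in Con and 0.21, 0.03 and 0.10 FPKM in DRB, which is 2 to 14 fragments per library. It did not reach the filter and was not tested. The log2 ratio of Zfp36l1 to Zfp36l2, with 1 added to each FPKM as for all ratios given here, was -2.71 ± 0.69 in Con and -4.22 ± 0.42 in DRB (SD, n = 3; exact two-sided permutation p 0.1, the smallest that 3 against 3 allows, and 0.25 after adjustment over 5 ratios). With Zfp36l1 so low, the added 1 makes up most of the numerator, so this ratio mirrors the level of Zfp36l2 and moves with library scaling as that level does. A lincRNA on the opposite strand, Gm26669 (not used here), overlaps Zfp36l1, and 51.5% of the 100-base stretches of Zfp36l1 also occur, on either strand, in transcripts of Gm26669 or of the pseudogene Zfp36l1-ps, so its level is uncertain.

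The messages of both Zfp36 genes themselves carry the AU-rich nonamer that the family binds. The sites are shown because these were the only members of the 10 with the nonamer in the 3′ UTR of their longest coding transcript; each is written 5′ to 3′ in the DNA alphabet of the GENCODE M21 (GRCm38) transcript, with 30 bases in all and the nonamer TTATTTATT in capitals.
Zfp36l2: actatttaacTTATTTATTatcttgtgaaa
Zfp36l1: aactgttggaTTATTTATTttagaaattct

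The site of Zfp36l2 spans positions 821 to 829 of a 3′ UTR of 1822 bases, and that of Zfp36l1 positions 1404 to 1412 of 1835 bases. Each 3′ UTR also holds 3 copies of the heptamer TATTTAT on the sense strand, 1 of which lies inside the nonamer. Of 3′ UTRs of like length (from 0.75 of its length to a similar ratio above it), 9.28% held the nonamer in the case of Zfp36l2 and 9.54% in that of Zfp36l1. Ythdf2 held 1 heptamer and the remaining 7 members held none. The hexamer TTTTAT, a form of the cytoplasmic polyadenylation element bound by Cpeb1, occurred 4 times in Zfp36l2, 3 times each in Zfp36l1 and Ythdf2, once each in Pabpc1, Igf2bp2 and Ybx2, and not in the 3′ UTRs used for Pabpn1, Pabpn1l, Pabpc1l and Cpeb1. The 3′ UTR used for Cpeb1 is short, at 61 bases, because it belongs to the transcript with the longest coding sequence. Among 3′ UTRs of like length 75.3% held this hexamer in the case of Zfp36l2 and 78.7% in that of Ythdf2.

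Ythdf2 (chromosome 4, 132184912 to 132212303, minus strand) encodes a reader of m6A that directs methylated messages to decay and is required for oocyte competence. It stood at 214, 399 and 420 FPKM in Con and at 326, 359 and 403 FPKM in DRB, with Con replicate 1 the lowest and Con replicate 3 the highest of the 6. Means were 344 ± 114 and 362 ± 38.4 FPKM (SD, n = 3), and the log2 change was 0.13 with a 95% interval of -0.53 to 0.79 (limma adjusted p 0.871). Its sign turned, to -0.18, without Con replicate 1.

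Igf2bp2 (chromosome 16, 22059009 to 22163299, minus strand) encodes an m6A reader of the other kind, which protects the messages it binds. Con libraries stood at 8.40, 7.68 and 10.9 FPKM and DRB libraries at 16.5, 12.5 and 10.7 FPKM, with means of 8.99 ± 1.68 and 13.2 ± 3.00 FPKM (SD, n = 3). DRB replicate 3 lay inside the range of Con. The log2 change was 0.50 with a 95% interval of -0.29 to 1.30 (limma adjusted p 0.510). Against its relative Igf2bp3, the log2 ratio was 0.30 ± 0.45 in Con and 0.62 ± 0.48 in DRB (SD, n = 3; exact permutation p 0.5).

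Ybx2 (chromosome 11, 69935796 to 69941605, plus strand) encodes the germ-cell Y-box protein MSY2, which packages and stabilizes stored messages in the oocyte. It stood at 2.87, 2.91 and 3.92 FPKM in Con and at 10.2, 4.25 and 3.02 FPKM in DRB, with means of 3.23 ± 0.595 and 5.81 ± 3.81 FPKM (SD, n = 3). DRB replicate 1 lay far above the rest, and DRB replicate 3 lay within Con. The log2 change was 0.55 with a 95% interval of -0.48 to 1.58 (limma adjusted p 0.591), and it was 0.13 without DRB replicate 1. Ybx1, the widely expressed relative, had means of 462 ± 89.6 and 451 ± 60.6 FPKM in Con and DRB (SD, n = 3). The log2 ratio of Ybx1 to Ybx2 was 6.76 ± 0.26 in Con and 6.19 ± 0.74 in DRB (SD, n = 3; exact permutation p 0.3).

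Cpeb1 (chromosome 7, 81347026 to 81455465, minus strand) encodes the protein that holds stored messages with short tails and triggers their polyadenylation in meiosis. It stood at 1.87, 2.62 and 1.98 FPKM in Con and at 3.54, 1.69 and 0.92 FPKM in DRB, with means of 2.16 ± 0.405 and 2.05 ± 1.35 FPKM (SD, n = 3). The DRB libraries included both the highest and the lowest of the 6. The log2 change was -0.13 with a 95% interval of -1.10 to 0.83 (limma adjusted p 0.913), and the sign turned, to 0.15, without DRB replicate 3. About 37 to 133 fragments lie behind each value, estimated with the transcript of longest coding sequence, whose 3′ UTR has 61 bases. A longer transcript would give more fragments.

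DRB replicate 1 was the highest of the 6 libraries for 5 of the 7 tested members, Pabpc1, Zfp36l2, Igf2bp2, Ybx2 and Cpeb1, and for 27.6% of all tested genes. For Pabpn1 it was level with DRB replicate 3, and for Ythdf2 it was the fifth of the 6. The summed level of the oocyte and cleavage embryo markers other than Dppa3 was 302 FPKM in DRB replicate 1, 327 in DRB replicate 2 and 147 in DRB replicate 3, against 155 to 207 FPKM in Con. Within these sums, Oosp1 was 178 FPKM in DRB replicate 1, 199 in DRB replicate 2 and 49.8 in DRB replicate 3, and 30.9 to 47.9 FPKM in Con. It made up most of the sum in DRB replicates 1 and 2. The other markers did not rise together. Zp3 and Padi6 were lower in every DRB library than in every Con library, Khdc3 was higher, and the rest overlapped between groups. The part of these markers in the members' values was not tested.

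**Figure D3:**
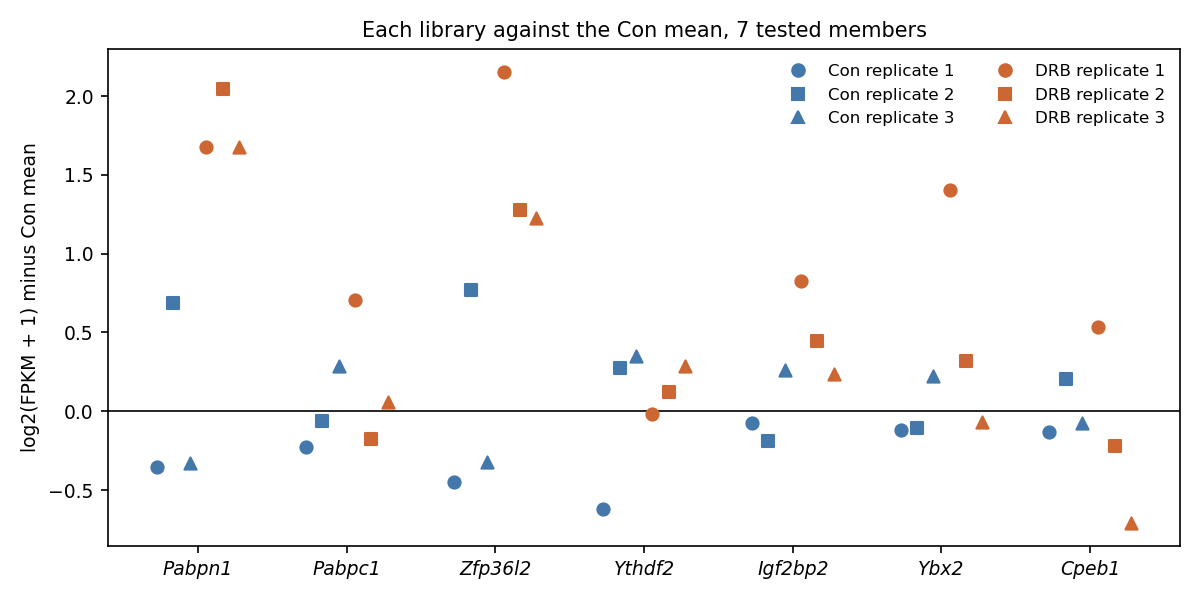
Level of the 7 tested members in each library as log2(FPKM + 1) minus the mean of the 3 Con libraries; colour marks the group and the symbol the replicate number. DRB replicate 1 is the top point for 5 of the 7 members, and Con replicate 2 is the top Con point for Pabpn1 and Zfp36l2.

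In order of level the members fell into separate tiers. In Con, Pabpn1, Pabpc1 and Ythdf2 had overlapping ranges between 214 and 733 FPKM, Igf2bp2 and Zfp36l2 overlapped between 4.17 and 11 FPKM, and Ybx2, at 2.87 to 3.92 FPKM, lay above Cpeb1, at 1.87 to 2.62 FPKM. In DRB, Pabpn1 at 1456 FPKM or more no longer overlapped Pabpc1, at 660 FPKM or less. The ranges of Pabpc1 and Ythdf2, of Zfp36l2 and Igf2bp2, and of Ybx2 and Cpeb1 overlapped there.

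The genes whose levels ran most like those of Pabpn1 across the 6 libraries were Arl4a, an ARF-like GTPase, with a Pearson's r of 0.986, Endog, the mitochondrial endonuclease G, with 0.985, and Hmgn3, a nucleosome-binding protein, with 0.976. The comparison took in 3176 named genes whose mean over the 6 libraries reached 20 FPKM, of which 17 had an r of 0.95 or more. The points share the split into Con and DRB, so genes that differ between groups score high by that alone. Hmgn3 and Arl4a were also called higher in DRB (limma adjusted p 0.00647 and 0.0226), and Endog was not (adjusted p 0.0631).

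Around the members, 7 lists of related genes, also chosen with earlier results of these data known, held 106 tested genes. Of these 0 were called in either direction by limma, against 2.48% of all genes tested. At an unadjusted p below 0.05 there were 14, 8 higher and 6 lower, against 18.1% of all genes, and the median log2 change was -0.10, beside -0.09 over all genes. Groups did not overlap in 18.9% of the 106 and in 23.8% of all genes tested. With a minimum of 5 FPKM, median-of-ratios scaling or upper-quartile scaling 1 gene was called, Ythdc1, which is named after its values were seen (limma adjusted p 0.0525 as reported and 0.0351 to 0.0413 in those alternatives).

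Among 6 genes of nuclear tail synthesis 0 were called and the median was 0.25; Papola, the nuclear poly(A) polymerase, was at 406 ± 52.1 and 455 ± 35.1 FPKM, and Cpsf6, of the cleavage factor that picks poly(A) sites, at 61.8 ± 4.55 and 132 ± 67.2 FPKM (Con and DRB; SD, n = 3; limma adjusted p 0.773 and 0.178). Among 9 cytoplasmic poly(A)-binding proteins and partners 0 were called and the median was -0.14. At an unadjusted limma p below 0.05, the nuclear list held 2 higher (33.3%), Cpsf6 and Papolb, and 0 lower. At that level the cytoplasmic list held 0 higher and 1 lower (11.1%). Of all genes tested, 7.53% were higher and 10.5% lower at that level. Paip2, which displaces Pabpc1 from the tail, had a log2 change of -0.19 and Larp4, which binds Pabpc1 and the tail, of -0.09. Of 13 proteins that bind AU-rich and similar elements 0 were called and 0 had an unadjusted limma p below 0.05, with a median of 0.24. The most abundant, Hnrnpd and Tial1, had log2 changes of 0.21 and 0.31.

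Of 17 m6A writers, erasers and other readers 0 were called, and the median was 0.10. At an unadjusted limma p below 0.05, 2 were higher and 2 lower (11.8% each). Of all genes tested, 7.53% were higher and 10.5% lower at that level. Wtap, the regulatory subunit of the methyltransferase, had means of 1297 ± 136 and 856 ± 226 FPKM in Con and DRB (SD, n = 3; limma adjusted p 0.254), and Hnrnpa2b1, a nuclear RNA-binding protein, had a log2 change of 0.35. Of 16 cold-shock and repressor proteins 0 were called and 0 had an unadjusted limma p below 0.05, with a median of -0.18. The sign was negative in 13 and positive in 3 (18.8%, against 44.0% of all genes tested). Ybx1, the most abundant of them, had a log2 change of -0.02 (limma adjusted p 0.976).

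In the list of CPEB partners and genes of cytoplasmic polyadenylation and uridylation (addition of U to RNA ends), 0 of 21 were called, and the median was 0.16. At an unadjusted limma p below 0.05, 4 were higher (19.0%, against 7.53% of all genes tested) and 0 lower (against 10.5%). Aurka, the kinase that activates Cpeb1 in meiosis, was at 131 ± 82.8 and 82.3 ± 17.3 FPKM, and Tent4b, a poly(A) polymerase, at 81.9 ± 27.9 and 56.0 ± 15.8 FPKM (SD, n = 3). In the decapping and 5′ to 3′ decay list 0 of 24 were called, 17 had a negative sign and the median was -0.21. The sign was positive in 7 (29.2%, against 44.0% of all genes tested). At an unadjusted limma p below 0.05, 0 were higher and 3 lower (12.5%). DRB lay entirely below Con in 5 of the 24 (20.8%, against 13.9% of all genes tested). It lay entirely above Con in 1 (4.17%, against 9.85%). Lsm7 and Lsm5, subunits of the Lsm rings that bind the 3′ ends of RNAs, had log2 changes of -0.30 and -0.82.

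**Figure D4:**
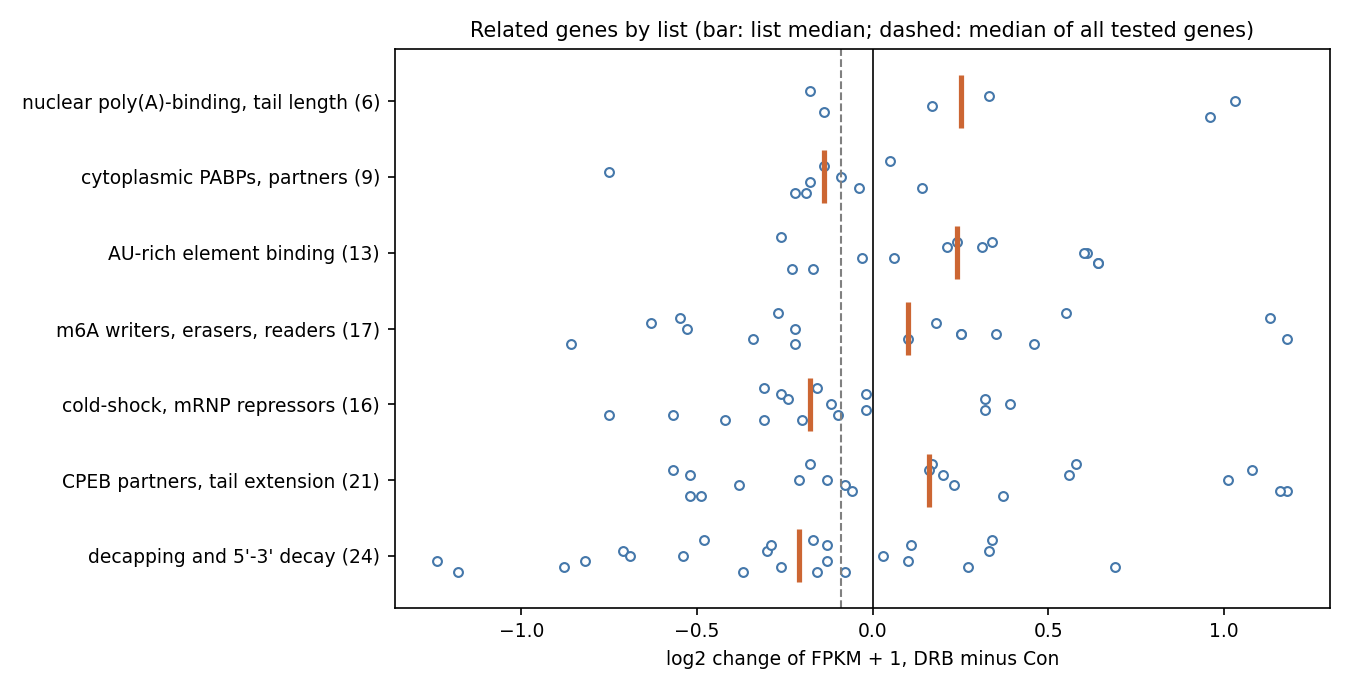
Log2 change of FPKM + 1, DRB minus Con, of the tested genes in each of the 7 related lists, with the number tested in brackets; orange bars are list medians, which run from -0.21 to 0.25, and the dashed line is the median of all tested genes. No point lies beyond 1.24 on either side.

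**Figure D5:**
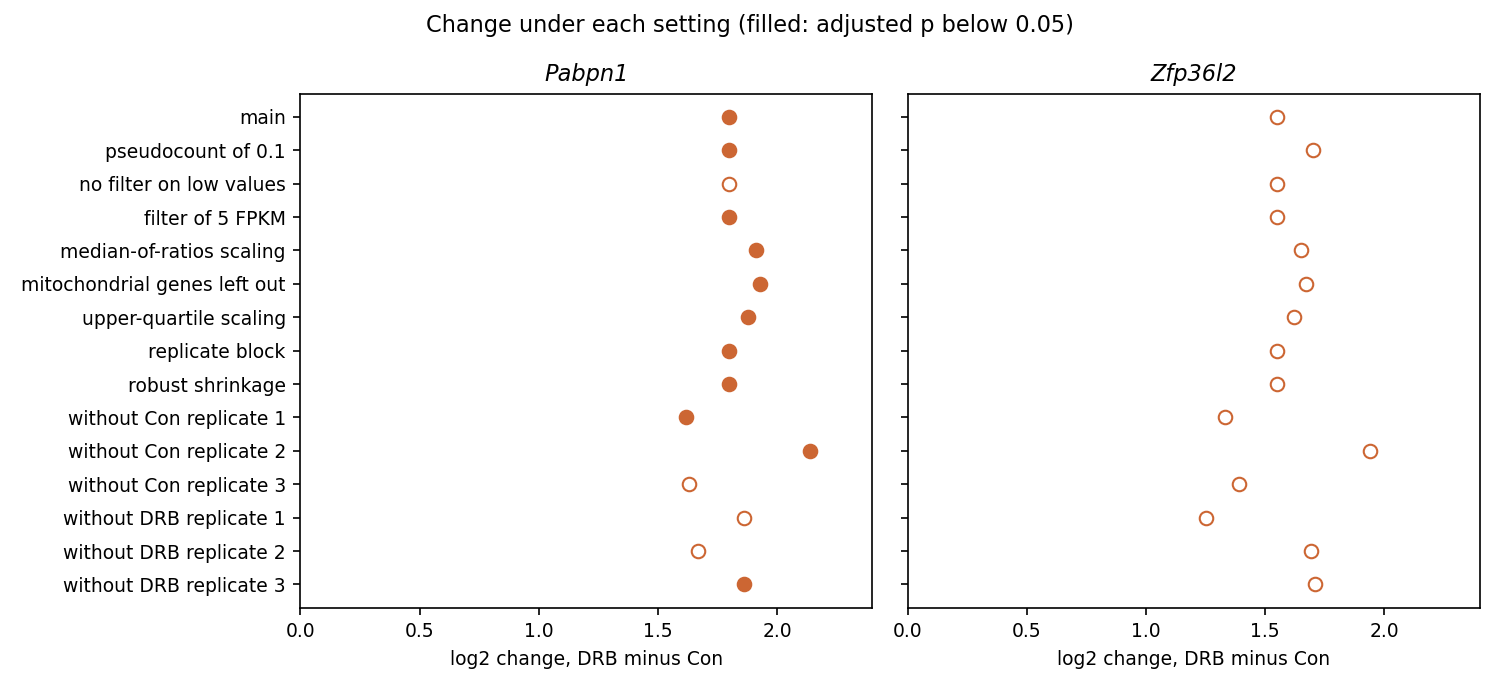
Log2 change of Pabpn1 and Zfp36l2, DRB minus Con, in the reported fit (main) and under each of the 14 alternatives; filled points have an adjusted p below 0.05. Pabpn1 is open in 4 of the alternatives, and Zfp36l2 is open in all of them.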

How the data were processed

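The authors deposited FPKM per gene (per the file headers), fragments per kilobase of transcript, scaled to a common library total, with 2 decimals. Reads were handled with cutadapt 1.16 and STAR on mm10, per the submitters' processing notes. How FPKM was computed from the alignments, and with which annotation, was not given in the sources used here. Each FPKM is a share of its library, so that when some abundant transcripts go up the others go down.

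A gene entered the test if 3 or more libraries had 1 FPKM or more. The test was limma 3.58.1 (R 4.3.3) on log2(FPKM + 1), with a variance trend and no covariate, two-sided, adjusted by Benjamini-Hochberg over all 11893 genes and called below 0.05. The log2 scale with a pseudocount of 1 understates changes of low genes. In data simulated with 11893 genes, 6% of genes changed by 1, 55.3% by 2 and 86.7% by 3 on the log2 scale were called. Small changes are thus mostly missed. Few genes were changed in each run, none of them at low level, and the noise was drawn as normal. The shares in the real data may differ. Log2 ratios of members, with 1 added to each FPKM, were compared by exact permutation.

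The members and lists were chosen with earlier results of these data known. The text names the members, every called gene or else the 2 most abundant tested genes of each related list, and the 3 genes most like each called member. One gene that this rule names is not reported here. Ythdc1 and other single genes of the closing section were picked with their values in view. Of 132 related symbols searched, 120 were found, and 106 passed the filter.

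Depth was estimated from genes with 1 transcript of GENCODE M21 (GRCm38, the assembly of mm10), with 160 to 180 bases taken off each length. Of the low values, 73.9% to 80.8% then lay within 0.15 of a whole fragment. Of 24 genes used by every cell 0 were listed at 0. Fragment numbers and limits use the longest coding transcript and cover counting error only. Of the gene IDs, 55154 matched GENCODE M21 and 181 did not. Figures and tables were made with Python 3.11.15, pandas 2.3.3 and matplotlib 3.10.9.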

Additional observations from a re-analysis of the deposited data

How the results depend on the processing

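In 14 alternatives the count of members called higher was 1, except that it was 0 with no filter on low values (27554 genes tested) and 0 to 1 without 1 library; 0 members were called lower in any of them. Pabpn1 kept its direction in all 14, with log2 changes of 1.62 to 2.14, and lost its call in 4. Zfp36l2 kept its direction and was called in 0. Related genes called higher numbered 0 in the reported fit and 1, Ythdc1, with the filter of 5 FPKM, with median-of-ratios scaling and with upper-quartile scaling; the cause was not tested. Without 1 library, log2 changes turned sign within -0.06 to 0.38 for Pabpc1 (-0.06 without DRB replicate 1), -0.18 to 0.31 for Ythdf2 (-0.18 without Con replicate 1) and -0.47 to 0.15 for Cpeb1 (0.15 without DRB replicate 3). The 5 ratios kept their direction in the 8 alternatives run for them. Those of Pabpn1 to Pabpn1l and Pabpc1 to Pabpc1l rest on denominators at or near 0, and that of Zfp36l1 to Zfp36l2 mirrors Zfp36l2.

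Leaving out mitochondrial genes moved the median of all genes by 0.11, and Pabpn1 then stood at 1.93 (limma adjusted p 0.00752). Over all genes 182 were called higher and 113 lower. These were 231 and 86 under median-of-ratios scaling, 191 and 74 with mitochondrial genes left out, and 113 and 51 when the pseudocount was 0.1. With no filter on low values, they were 6 and 0 over the 27554 genes above 0 in any library. Without 1 library they were 34 to 139 and 13 to 81, the fewest without DRB replicate 1.

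The replicate block gave 127 and 44 calls over all genes, with Pabpn1 at 1.80 (limma adjusted p 0.0224), and changed no call of a member. Same-numbered libraries deviated from their group means with correlations of -0.047, 0.053 and -0.051, so the numbers show no pairing. No count test was run on these FPKM values. Ybx2 and Cpeb1 had no value with the filter of 5 FPKM.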

Other observations

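Several related genes lay apart between the groups without passing the limma test over all genes; they were chosen here after their values were seen. Ythdc1, the nuclear m6A reader, stood at 52.9, 57.0 and 70.6 FPKM in Con and at 150.5, 130.8 and 116.6 FPKM in DRB (log2 change 1.13, limma adjusted p 0.0525). Ythdf3, a cytoplasmic reader related to Ythdf2, had means of 12 ± 3.51 and 28.4 ± 7.89 FPKM in Con and DRB (SD, n = 3; adjusted p 0.11). Mettl3, the catalytic subunit of the m6A methyltransferase, was at 49.4 ± 6.63 and 26.6 ± 0.681 FPKM (adjusted p 0.135). Of the 17 tested genes in the m6A list, 3 had all DRB libraries above all Con libraries (17.6%, against 9.85% of all genes tested): Ythdc1, Ythdf3 and Rbm15b, an adaptor of the methyltransferase at 1.57 ± 0.0265 and 2.07 ± 0.212 FPKM (SD, n = 3; limma adjusted p 0.788). Rbm15b lay near the filter of 1 FPKM, with a log2 change of 0.25. The reverse held for 2, Mettl3 and Wtap (11.8%, against 13.9% of all genes). Groups overlapped for Mettl14, Virma, Zc3h13, Cbll1 and Rbm15, further components of the methyltransferase.

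Tent2, the poly(A) polymerase of cytoplasmic tail extension, had means of 30.1 ± 4.90 and 65.3 ± 15.9 FPKM in Con and DRB (SD, n = 3; limma adjusted p 0.0891). Cpeb2 and Cpeb4, relatives of Cpeb1, had log2 changes of 1.18 and 1.01 (adjusted p 0.172 and 0.167), beside -0.08 for the remaining relative, Cpeb3 (adjusted p 0.947), and -0.13 for Cpeb1 itself. In Tent2, Cpeb2 and Cpeb4 the DRB libraries lay above the Con libraries, and DRB replicate 1 was the highest of the 6. The same held for Wdr33 and Tent5a of that list. In all, DRB lay above Con in 5 of its 21 tested genes (23.8%, against 9.85% of all genes tested). DRB replicate 1 was the highest in 11 of the 21 (52.4%, against 27.6% of all genes tested). Lsm3, of the Lsm ring, had means of 338.5 ± 86.0 and 151.2 ± 55.9 FPKM (adjusted p 0.0818).

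Over 9100 tested genes with a 3′ UTR in GENCODE M21, the 2372 that hold the heptamer TATTTAT bound by the Zfp36 family had a median log2 change of 0.00, DRB minus Con, and the 6728 without it of -0.14. The 3′ UTRs with it were longer, with a median of 1937 against 606 bases. Among 3′ UTRs of 1000 to 3000 bases the medians were 0.02 for 1120 genes with it and -0.08 for 1913 without it. The gap was not particular to this motif: with and without the Cpeb1 hexamer TTTTAT the medians were -0.03 and -0.20 over all lengths and -0.01 and -0.15 at 1000 to 3000 bases, and with and without the nonamer TTATTTATT they were -0.03 and -0.11, and 0.01 and -0.05. For GGACT, a common form of the m6A site, they were -0.08 and -0.15 over all lengths, and the order turned at 1000 to 3000 bases, to -0.06 and 0.00. No test was made between these sets of genes, and the values are a description only.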
